A study of Yarrowia lipolytica with 8 samples.

Results

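Genes at the ends of the 6 chromosomes of the oleaginous yeast Yarrowia lipolytica were followed in a glucose and glycerol fermentation. The end genes were chosen by position alone: the genes listed in either expression table were sorted along each chromosome, A to F, and the first 25 and the last 25 of each were taken. This gave 300 genes at 12 ends, out of 6394 listed genes, and the remaining 6094 served as the comparison. Values are FPKM, the number of sequenced fragments per kilobase of exon, scaled to all fragments mapped in the library.

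Strain ACA DC 50109 was grown on a mixture of glucose and glycerol in medium that limits nitrogen, and mRNA was sequenced in 4 groups of 2 libraries each. In the culture with controlled dissolved oxygen (pO2), samples were taken before glycerol limitation (pO2-1) and after it (pO2-2). In the culture in which pO2 was left uncontrolled, the corresponding groups were pO2-UN-2 (before) and pO2-UN-3 (after). The sample labels give the pO2 setting but not the phase, and the phase of the uncontrolled groups comes from the study's supplementary text. The labels number the replicates without saying that they came from separate fermentors, so p-values measure only the spread between these libraries, which may be technical, and a pO2 setting cannot be told apart from the fermentor it was run in.

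A chromosome end carries a telomere, a stretch of short DNA repeats bound by protective proteins and lengthened by telomerase. In Saccharomyces cerevisiae, genes placed beside a telomere are kept low by the Sir proteins, among them a histone deacetylase, and the regions next to telomeres hold gene families for sugar use and for cell surface proteins. Y. lipolytica belongs to a distant branch of the yeasts. The comparisons below describe how high the end genes stood, how their levels ran with distance from the end, and which of them changed.

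The position in the CLIB122 assembly was checked first. The outermost listed gene of the 6 left ends started between base 234 (chromosome B) and base 13437 (chromosome F). Chromosome lengths were not used here, so the distance of the right-hand genes from the last base is not given, and reads of one strain were mapped to the assembly of another. The 25 genes of an end spanned from 46.6 kb (B right) to 108.7 kb (E right). Of the 300 genes, 155 lay on one strand and 145 on the other, and no end gene overlapped its neighbour. Their median span was 1298 bases, against 1245 for all other genes, and the median gap to the next gene was 1018 bases, against 1119. No KEGG hit was listed for 128 of them (42.7%), against 37.3% of the other genes, and no Gene Ontology term for 118 (39.3%), against 38.8%. Thus size and spacing of the end genes were close to those of the rest.

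The low FPKM values moved in steps of 1 fragment, which placed each library at 5100000 to 5360000 counted fragments. Replicates of the controlled culture differed by little more than counting noise, with a mean variance of 1.19 times (pO2-1) and 1.26 times (pO2-2) the sampling variance. The factor was 20.9 for pO2-UN-2 and 17.2 for pO2-UN-3. The group pO2-UN-2 stood apart in that 5953 and 5901 genes reached an FPKM of 1, against 6130 to 6201 in the other 6 libraries. Levels are relative to each library's total, and the 2 cultures were deposited as separate tables. Scaling by the median of ratios moved the median log2 fold change of all genes from 0.49 to 0.03 between the uncontrolled groups, from -0.31 to -0.01 between the cultures before limitation, from 0.13 to 0.01 between the controlled groups and from -0.10 to 0.00 between the cultures after limitation. Changes of the end genes are therefore set beside the median of all tested genes. In these bulk cultures, fewer cells expressing a gene and less RNA per cell cannot be told apart.

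As a group the end genes were not low. Their median FPKM was 50.6 and 51.0 in the 2 pO2-1 libraries, 57.8 and 56.6 in pO2-2, 34.8 and 34.1 in pO2-UN-2, and 51.7 and 53.9 in pO2-UN-3. The other genes had medians of 45.5 and 45.7, 53.0 and 53.2, 35.1 and 35.0, and 48.9 and 50.3 in the same order. On the log2(FPKM + 1) scale the end genes stood 0.15 and 0.16 above the others in pO2-1, 0.12 and 0.09 in pO2-2 and 0.08 and 0.10 in pO2-UN-3, and differed from them by -0.01 and -0.04 in pO2-UN-2. These offsets are small beside the spread among the end genes, whose middle range in the first pO2-1 library ran from 20.8 to 113.1 FPKM. Their sign depended on how many genes were counted as the end: with 10 or with 50 genes per end the difference was below 0 in all 4 groups.

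**Figure D1:**
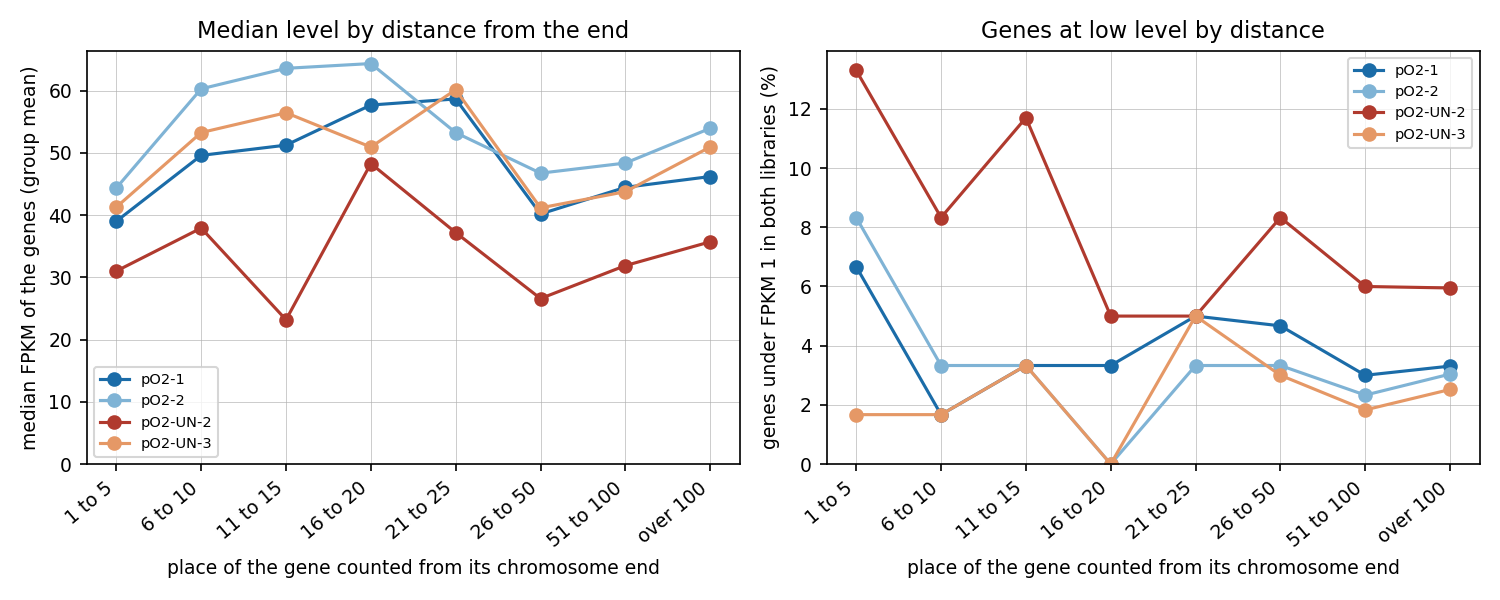
Median FPKM of the group means (left) and percent of genes under 1 FPKM in both libraries (right), for genes binned by their place from the nearest chromosome end, with 1 line per group. The bin of places 1 to 5 has a lower median than the genes beyond place 100 in each group (39.0 against 46.2 in pO2-1), and pO2-UN-2 has the lowest median in every bin.

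Within the ends, the outermost genes had the lowest median in 3 of the 4 groups. The 60 genes ranked 1 to 5 had a median FPKM of 39.0 in pO2-1, 44.4 in pO2-2, 31.0 in pO2-UN-2 and 41.3 in pO2-UN-3. Genes ranked above 100 had 46.2, 54.0, 35.7 and 51.0, respectively. Ranks 16 to 20 exceeded these in pO2-1, with 57.7, in pO2-2, with 64.4, and in pO2-UN-2, with 48.3. The genes at ranks 26 to 50, which are outside the 300, were as low as the outermost ones, at 40.2, 46.8, 26.6 and 41.2. So no steady slope joined the end to the interior. Among the 12 ends, the median ran from 33.5 (C left) to 81.0 (D left) in pO2-1 and from 10.5 (F left) to 76.1 (E left) in pO2-UN-2.

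The outermost listed gene of each end gave every kind of level, from silent to among the highest of all. At the A left end, YALI0_A00110g (2659 to 5277), which carries the term oligopeptide transporter activity, had FPKM values of 3704 and 3643 in pO2-1, 2517 and 2585 in pO2-2, 1.22 and 1.13 in pO2-UN-2 and 4959.9 and 4419 in pO2-UN-3. Its pO2-UN-2 libraries were far below the other 6. The A right end closed with YALI0_A21461g, at FPKM values of 90.9 and 89.4 in pO2-1, 56.5 and 56.9 in pO2-2, 80.6 and 69.9 in pO2-UN-2 and 123 and 105 in pO2-UN-3. YALI0_B00110g at B left lay between 8.97 and 15.4 in the 8 libraries. YALI0_B23496g at B right, which has no KEGG hit, had FPKM values of 87.9 and 87.0 in pO2-1, 31.9 and 34.7 in pO2-2, 215 and 232 in pO2-UN-2 and 748 and 686 in pO2-UN-3, so that both pO2-UN-3 libraries were above all others. At C left, YALI0_C00110g, matched weakly to an esterase class, had FPKM values of 30.9 and 32.5 in pO2-1, 48.3 and 46.7 in pO2-2, 5.10 and 3.03 in pO2-UN-2 and 11.8 and 20.5 in pO2-UN-3.

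The remaining outermost genes included housekeeping genes of known role. YALI0_C24420g at C right encodes elongation factor 1-gamma, which helps deliver tRNAs to the ribosome, and had FPKM values of 227 and 223 in pO2-1, 468 and 465 in pO2-2, 275 and 307 in pO2-UN-2 and 549.6 and 422 in pO2-UN-3. YALI0_D27346g at D right, a pre-mRNA processing factor, kept between 29.6 and 40.3 FPKM in all 8 libraries and was called in no comparison. YALI0_E00110g at E left matched an acid phosphatase of the same species, an enzyme that releases phosphate outside the cell, with FPKM values of 25.2 and 24.4 in pO2-1, 75.1 and 72.9 in pO2-2, 3.84 and 5.07 in pO2-UN-2 and 76.3 and 53.0 in pO2-UN-3. YALI0_E35222g (E right) and YALI0_F32175g (F right) stayed between 6.76 and 23.5 FPKM and had no KEGG hit. YALI0_D00110g at D left and YALI0_F00110g at F left never exceeded 1 FPKM: the first had 0.87 and 0.43 in pO2-UN-3 and was listed at 0 in the other 6 libraries, and the second lay between 0.33 and 1.00. Thus 2 of the 12 outermost genes were near silent while YALI0_A00110g was the highest of all 300 end genes in pO2-1 and in pO2-UN-3.

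**Figure D2:**
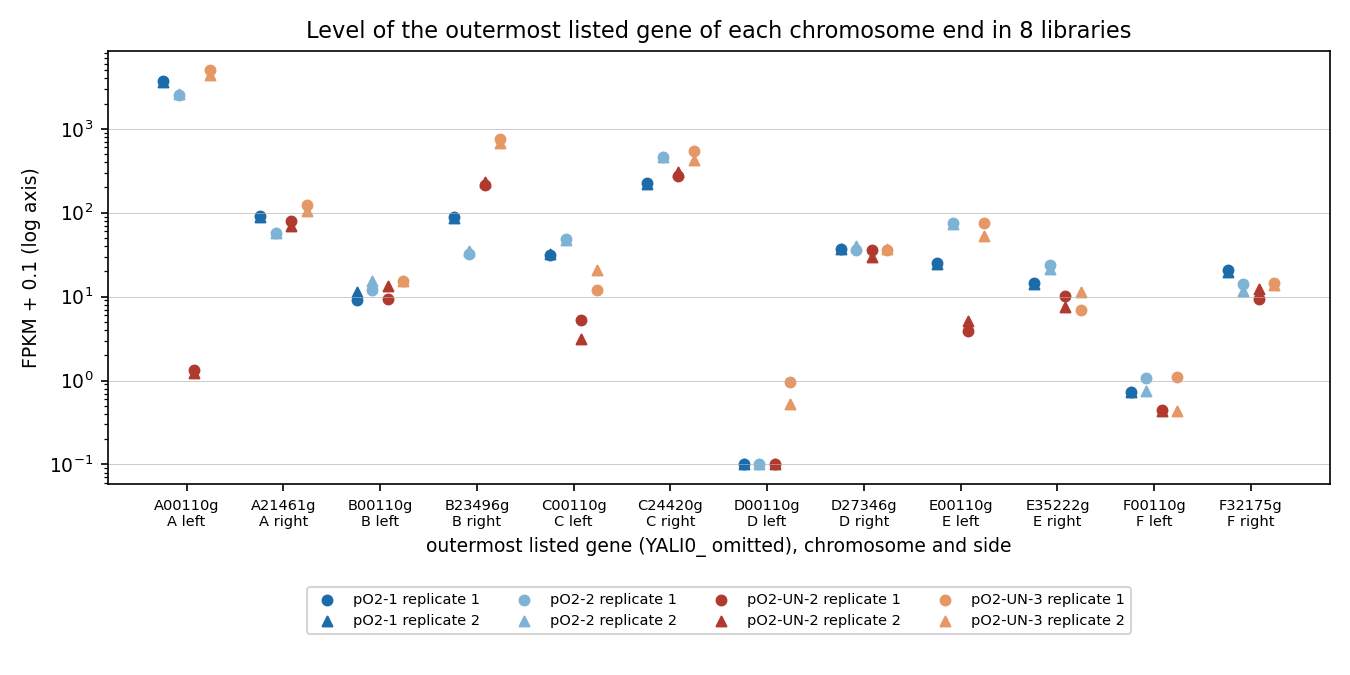
FPKM + 0.1 on a log axis for the outermost listed gene of each of the 12 ends in all 8 libraries, coloured by group, with circles for replicate 1 and triangles for replicate 2, so that a gene listed at 0 is drawn at 0.1. YALI0_D00110g and YALI0_F00110g stay at or under 1 FPKM in every library, and YALI0_A00110g is at 1.22 and 1.13 FPKM in pO2-UN-2 and at 2517 or more in the other 6.

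Few end genes were silent in all groups. Under 1 FPKM in both libraries were 12 of 300 in pO2-1 (4%, against 3.35% of the other genes), 11 in pO2-2 (3.67%, against 2.99%), 26 in pO2-UN-2 (8.67%, against 6.07%) and 7 in pO2-UN-3 (2.33%, against 2.48%). The pO2-UN-2 share at ranks 26 to 50, outside the 300, was 8.33%. In pO2-UN-2, 14 end genes (4.67%) were under this level while every library of the other groups reached 1 FPKM, against 2.18% of the other genes. Only 4 end genes (1.33%, against 1.1%) were under 1 FPKM in all 8 libraries, and 15 (5%, against 5.22%) stayed under 5. At so low a level a value rests on few fragments, and genes with no fragments here are undetected at this depth, not absent. Among the 15 were YALI0_B00418g, with a weak glucanase hit and 0.99 in 1 pO2-UN-3 library and 0 elsewhere, and YALI0_E00286g, which matched a triacylglycerol lipase and lay between 0.42 and 2.06. The outermost bin (ranks 1 to 5) had 6.67% of genes under 1 FPKM in pO2-1, 8.33% in pO2-2, 13.3% in pO2-UN-2 and 1.67% in pO2-UN-3. Of the 293 end genes whose mean reached 1 FPKM in some group, pO2-UN-2 was the lowest group for 143 (48.8%), against 46.3% of the other genes.

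At the other extreme stood a few end genes with very high FPKM. YALI0_F00506g, glutamine synthetase, which fixes ammonium into glutamine, had FPKM values of 3248 and 3250.2 in pO2-1, 3316 and 3209 in pO2-2, 842 and 837 in pO2-UN-2 and 3212 and 3125 in pO2-UN-3 so that only pO2-UN-2 was low. YALI0_E00242g, the H protein of the glycine cleavage system, which carries the glycine residue between the enzymes of that complex, had FPKM values of 2605 and 2617 in pO2-1, 385 and 413 in pO2-2, 2361 and 2171 in pO2-UN-2 and 531 and 533 in pO2-UN-3. Both phases after limitation were low there, in either culture. YALI0_D00154g, without a KEGG hit, had FPKM values of 1626 and 1601 in pO2-1, 435 and 412 in pO2-2, 2369 and 3209.8 in pO2-UN-2 and 1221 and 1218 in pO2-UN-3. YALI0_E34573g, ribosomal protein L37Ae, rose to the second highest mean of the end genes in pO2-UN-3.

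The first comparison asked which end genes responded to glycerol limitation under controlled pO2. A gene was called when limma gave a Benjamini-Hochberg adjusted p under 0.05 over all tested genes and the log2 fold change, on the log2(FPKM + 1) scale, was at least 2 in size. Of 290 tested end genes, 27 (9.31%) were higher in pO2-2 than in pO2-1, beside 9.52% of all 6218 tested genes, and 15 (5.17%) were lower, beside 4.29%. The shares are near those of the whole genome, and the median log2 fold change was 0.04 for the end genes and 0.13 for all tested genes. With 2 libraries per group an exact permutation test of one gene cannot go below p = 0.333, so the calls lean on the variance that limma shares across genes. Changes below are log2 fold changes on this scale, which understates those of low genes.

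The increases were led by genes that were at a few FPKM before limitation. YALI0_E35156g, at rank 3 of the E right end and without any annotation, had FPKM values of 4.63 and 4.23 in pO2-1, 602 and 616 in pO2-2, 1.15 and 1.71 in pO2-UN-2 and 468 and 587 in pO2-UN-3. The pO2-2 libraries were far above the pO2-1 libraries, with a log2 fold change of 6.81 (SE 0.06, adjusted p = 1.7e-08), and 9th among the increases of all tested genes. YALI0_E00704g, at rank 25 of E left and without a KEGG hit, had FPKM values of 2.85 and 4.24 in pO2-1, 460.1 and 476 in pO2-2, 0 and 0.25 in pO2-UN-2 and 43.7 and 74.6 in pO2-UN-3, and a log2 fold change of 6.71 (SE 0.15, adjusted p = 2.3e-07). YALI0_D00363g, whose best KEGG hit is a sugar:H+ symporter, a carrier that brings sugar in with protons, had FPKM values of 3.93 and 3.79 in pO2-1, 375 and 366 in pO2-2, 0.12 and 0.12 in pO2-UN-2 and 27.5 and 51.5 in pO2-UN-3, and a log2 fold change of 6.26 (SE 0.06, adjusted p = 1.9e-08). For these 3 genes the groups of both phases did not overlap in either culture. YALI0_C00341g, also without a KEGG hit, had FPKM values of 10.7 and 11.7 in pO2-1, 205 and 209 in pO2-2, 0.66 and 0 in pO2-UN-2 and 121 and 98.1 in pO2-UN-3, and rose by 4.09. YALI0_A00132g, second from A left, matched heat shock protein 70, a chaperone that helps proteins fold, and had FPKM values of 87.9 and 82.4 in pO2-1, 1346 and 1335 in pO2-2, 669 and 718 in pO2-UN-2 and 1227 and 1179 in pO2-UN-3. It rose by 3.96 with pO2 control, and the pO2-1 libraries alone were low.

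Among the decreases were a gene of DNA replication and a gene of deoxyribonucleotide supply. YALI0_A00176g, at rank 4 of A left with a weak chitinase hit, had FPKM values of 48.7 and 47.0 in pO2-1, 0.68 and 0.45 in pO2-2, 110.1 and 168 in pO2-UN-2 and 24.1 and 3.29 in pO2-UN-3, a log2 fold change of -4.97 (SE 0.14, adjusted p = 6.6e-07). YALI0_C00671g encodes CDC6, which loads the replicative helicase onto origins, and had FPKM values of 79.6 and 80.3 in pO2-1, 4.62 and 3.86 in pO2-2, 11.3 and 8.65 in pO2-UN-2 and 3.42 and 3.15 in pO2-UN-3, a log2 fold change of -3.95 (SE 0.11, adjusted p = 5.3e-07). The pO2-1 libraries alone were high for it. YALI0_F31735g, the large subunit M1 of ribonucleotide reductase, which makes deoxyribonucleotides, had FPKM values of 540.4 and 538 in pO2-1, 65.0 and 65.4 in pO2-2, 25.7 and 18.4 in pO2-UN-2 and 59.9 and 70.3 in pO2-UN-3, a log2 fold change of -3.03 (SE 0.03, adjusted p = 2.4e-08). YALI0_C23991g, ribonuclease T2, had FPKM values of 413 and 404 in pO2-1, 37.1 and 31.5 in pO2-2, 33.1 and 25.8 in pO2-UN-2 and 57.4 and 24.6 in pO2-UN-3 and fell by 3.54. YALI0_C00385g, without a KEGG hit, had FPKM values of 49.8 and 50.8 in pO2-1, 5.69 and 7.03 in pO2-2, 6.85 and 4.70 in pO2-UN-2 and 3.76 and 5.21 in pO2-UN-3 and fell by 2.81. In all these genes except YALI0_A00176g the 2 uncontrolled groups were also far below pO2-1.

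The second comparison put pO2-UN-3 beside pO2-UN-2, the same question without pO2 control. Of 289 tested end genes, 37 (12.8%) were higher after limitation, beside 11.3% of 6185 tested genes, and 12 (4.15%) were lower, beside 5.01%. End genes under 1 FPKM in both pO2-UN-2 libraries (8.67%, against 6.07% of the other genes) were tested, if at all, only through pO2-UN-3. They could only be called higher here. The median log2 fold change was 0.60 for the end genes and 0.49 for all tested genes. The split depended on the scaling: higher genes made up 75.5% of the called end genes (69.3% over all genes) but 58% (49.4%) with median-of-ratios scaling, when 29 were higher and 21 lower.

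YALI0_A00110g led this comparison over the whole genome, a log2 fold change of 11.07 (SE 0.15, adjusted p = 7.4e-08). YALI0_E35156g was 10th of all tested genes, a log2 fold change of 7.77 (SE 0.21, adjusted p = 8.6e-07), and it rose in both cultures. YALI0_C00451g, an amino acid transporter, which imports amino acids across the plasma membrane, had FPKM values of 484 and 489 in pO2-1, 500.5 and 503 in pO2-2, 1.40 and 1.04 in pO2-UN-2 and 264 and 286 in pO2-UN-3. It was at the level of a few fragments in pO2-UN-2 only, and was called with a log2 fold change of 6.96 (SE 0.20, adjusted p = 1.1e-06). YALI0_C00341g rose by 6.41, YALI0_E00704g by 5.70 and YALI0_D00363g by 5.11, where the pO2-UN-2 value of the last rested on about 1 fragment per library. YALI0_E34881g, which matched a cardiolipin-specific phospholipase, an enzyme of mitochondrial membrane lipid turnover in Saccharomyces cerevisiae, had FPKM values of 445 and 429 in pO2-1, 194 and 192 in pO2-2, 17.9 and 15.0 in pO2-UN-2 and 154 and 161 in pO2-UN-3 and rose by 3.18. YALI0_E00110g, the acid phosphatase match, rose by 3.58.

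Of the 12 end genes that were lower in pO2-UN-3, 6 were also called higher in pO2-UN-2 than in pO2-1. These were 2% of the 300 end genes, against 2.54% of the other genes, and both comparisons share the pO2-UN-2 libraries. YALI0_E34540g, with only a weak kinase hit, had FPKM values of 19.8 and 24.1 in pO2-1, 24.7 and 25.1 in pO2-2, 535 and 426 in pO2-UN-2 and 31.9 and 36.5 in pO2-UN-3, a log2 fold change of -3.77 (SE 0.17, adjusted p = 4.1e-06). Its pO2-UN-2 libraries were far above the other 6. YALI0_B00572g, methylenetetrahydrofolate reductase, which supplies the methyl group for methionine, had FPKM values of 65.0 and 60.7 in pO2-1, 29.5 and 32.9 in pO2-2, 345 and 384 in pO2-UN-2 and 27.6 and 26.8 in pO2-UN-3, a log2 fold change of -3.69 (SE 0.14, adjusted p = 2.9e-06). YALI0_D27236g, without a KEGG hit, had FPKM values of 113 and 108 in pO2-1, 69.2 and 76.3 in pO2-2, 4891 and 3268 in pO2-UN-2 and 614 and 351 in pO2-UN-3, a log2 fold change of -3.10 (SE 0.29, adjusted p = 8.6e-05). YALI0_A21439g, second from A right and matched to an oxygenase class, had FPKM values of 51.8 and 56.0 in pO2-1, 71.2 and 70.8 in pO2-2, 481 and 645 in pO2-UN-2 and 80.0 and 54.9 in pO2-UN-3 and fell by 3.05. YALI0_A00176g fell in this culture too, by 3.72, with uneven pO2-UN-3 replicates of 24.1 and 3.29. YALI0_E00242g fell by 2.09, and YALI0_D00220g, the HscB chaperone of iron-sulfur cluster assembly, by 2.27, from 304 and 333 in pO2-UN-2 to 68.7 and 61.8 in pO2-UN-3. YALI0_E34749g, catalase, which breaks down hydrogen peroxide, had FPKM values of 154 and 156 in pO2-1, 302 and 312 in pO2-2, 556 and 264 in pO2-UN-2 and 65.1 and 75.5 in pO2-UN-3 and fell by 2.44. Without the first pO2-UN-2 library its change was -1.90, under the minimum.

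Across both cultures, 9 end genes (3%, against 2.58% of the other genes) were higher after limitation in each, 3 (1%, against 1.18%) were lower in each and 2 (0.667%, against 0.656%) went in opposite directions. In all, 106 of 300 end genes (35.3%) were called in at least 1 of the 4 comparisons, against 33.6% of the other genes.

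**Figure D3:**
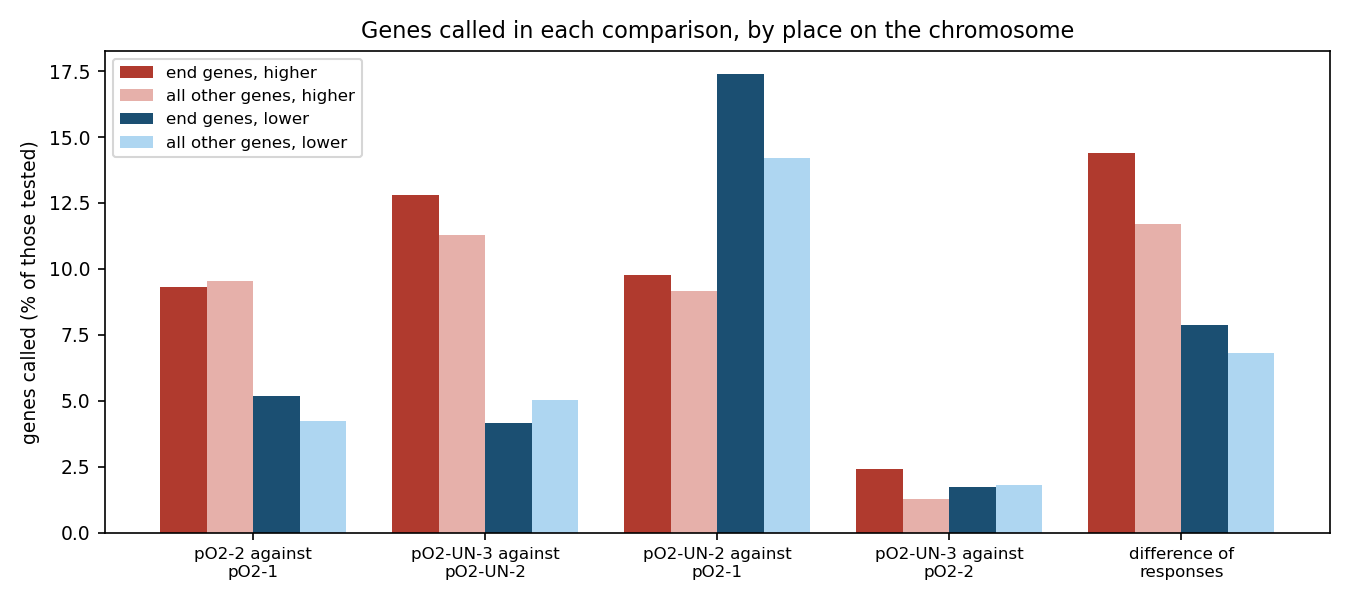
Percent of the tested end genes (dark bars) and of all other tested genes (light bars) called higher (red) or lower (blue) in the 4 comparisons and in the difference of responses between cultures. The widest gap is that of the genes lower in pO2-UN-2 than in pO2-1 (17.4% against 14.2%). Among the other genes, those at ranks 26 to 50 gave 18.4% there.

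The third comparison set the cultures side by side before glycerol limitation, pO2-UN-2 against pO2-1. It gave the most calls: of 287 tested end genes 28 (9.76%) were higher without pO2 control, beside 9.18% of 6158 tested genes, and 50 (17.4%) were lower, beside 14.4%. End genes under 1 FPKM in both pO2-UN-2 libraries (8.67%, against 6.07% of the other genes) were tested, if at all, only through pO2-1. They could only be called lower here. The median log2 fold change was -0.42 for the end genes and -0.31 for all tested genes. With median-of-ratios scaling 32 were higher and 44 lower, so that higher genes made up 42.1% of the called end genes instead of 35.9% (50.1% instead of 39% over all genes).

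Among the lower genes were carriers, channels and an amidase. YALI0_A00110g had the second lowest fold change of all tested genes, a log2 fold change of -10.72 (SE 0.08, adjusted p = 8.0e-06). YALI0_E34771g, an amidase, which releases ammonia from amides, had FPKM values of 410.2 and 409 in pO2-1, 248 and 264 in pO2-2, 0.87 and 0.37 in pO2-UN-2 and 64.1 and 81.3 in pO2-UN-3. Its value in pO2-UN-2 was under 1 FPKM and it was called with a log2 fold change of -8.00 (SE 0.18, adjusted p = 2.1e-05). The amino acid transporter YALI0_C00451g followed, with a log2 fold change of -7.78 (SE 0.13, adjusted p = 1.5e-05). YALI0_E00308g, weakly matched to an aminomethyltransferase, had FPKM values of 154 and 150.2 in pO2-1, 61.3 and 59.2 in pO2-2, 0.34 and 0.22 in pO2-UN-2 and 51.3 and 47.5 in pO2-UN-3, a log2 fold change of -6.90 (SE 0.13, adjusted p = 1.7e-05). YALI0_D00495g, which matched an aquaporin-related protein, a membrane channel, had FPKM values of 242 and 223 in pO2-1, 224 and 222 in pO2-2, 1.85 and 0.61 in pO2-UN-2 and 83.8 and 81.0 in pO2-UN-3, a log2 fold change of -6.77 (SE 0.30, adjusted p = 6.7e-05). YALI0_D00132g, whose best hit is an inositol transporter of the sugar carrier family, had FPKM values of 113 and 109 in pO2-1, 26.2 and 27.1 in pO2-2, 0.61 and 0.40 in pO2-UN-2 and 12.9 and 22.8 in pO2-UN-3 and a log2 fold change of -6.22. YALI0_F00462g, related to aquaglyceroporins, which let glycerol cross membranes, had FPKM values of 47.7 and 54.9 in pO2-1, 8.26 and 8.85 in pO2-2, 0.43 and 1.47 in pO2-UN-2 and 4.03 and 2.30 in pO2-UN-3 and a log2 fold change of -4.79. YALI0_B23474g, second from B right, was listed at 0 in both pO2-UN-2 libraries against 30.3 and 26.1 in pO2-1, at least 26.6-fold lower when a floor of 3 fragments per library is used.

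The higher genes were fewer and of other kinds. YALI0_D27236g was far higher in both pO2-UN-2 libraries, a log2 fold change of 5.16 (SE 0.21, adjusted p = 5.2e-05), and YALI0_E34540g was called with a log2 fold change of 4.39 (SE 0.16, adjusted p = 4.3e-05). YALI0_E00462g, which matched a magnesium transporter, had FPKM values of 45.1 and 46.9 in pO2-1, 148 and 158 in pO2-2, 833 and 949 in pO2-UN-2 and 228 and 198 in pO2-UN-3, a log2 fold change of 4.24 (SE 0.10, adjusted p = 2.1e-05). YALI0_F32021g, a subunit of the preprotein translocase, which inserts proteins into the inner mitochondrial membrane, had FPKM values of 12.4 and 13.0 in pO2-1, 62.5 and 63.2 in pO2-2, 215 and 211 in pO2-UN-2 and 102 and 85.0 in pO2-UN-3, a log2 fold change of 3.97 (SE 0.09, adjusted p = 2.1e-05). YALI0_C00253g, acetolactate synthase, the first enzyme of branched-chain amino acid synthesis, had FPKM values of 26.1 and 24.7 in pO2-1, 134 and 131 in pO2-2, 349.6 and 418 in pO2-UN-2 and 166 and 139.8 in pO2-UN-3, a log2 fold change of 3.86 (SE 0.12, adjusted p = 3.1e-05). In YALI0_C00253g and YALI0_F32021g the pO2-1 libraries were the lowest of the 8 and those of pO2-UN-2 the highest. YALI0_A21263g, D-arabinono-1,4-lactone oxidase, which makes a yeast relative of vitamin C, was also higher, by 2.59.

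**Figure D4:**
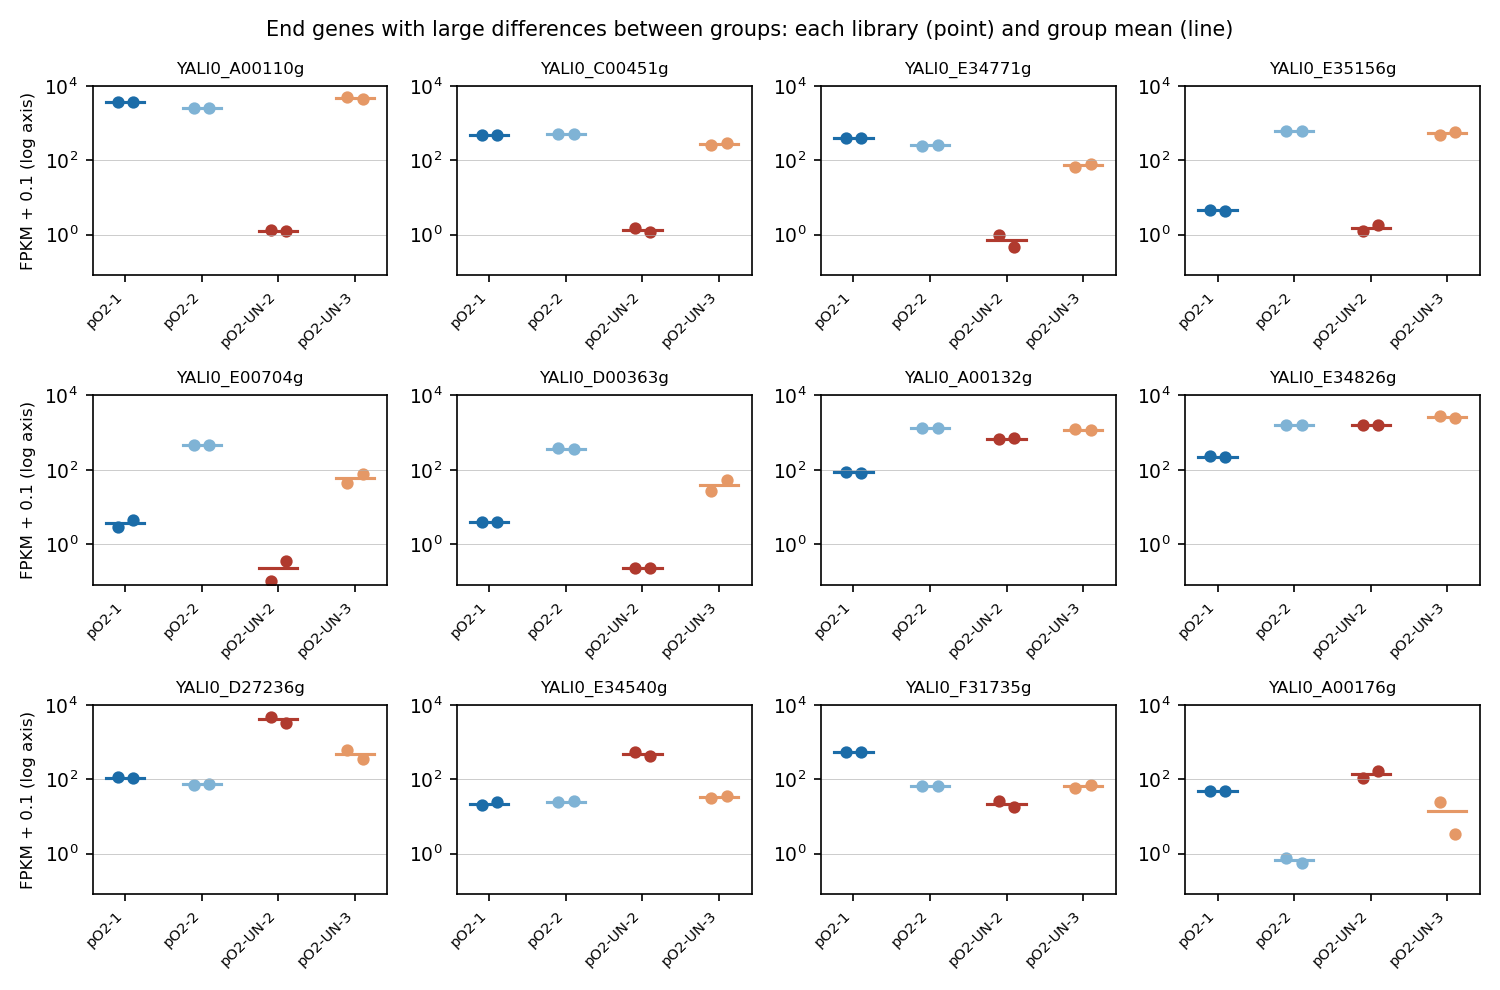
FPKM + 0.1 on a log axis for 12 end genes with large differences between groups, with a point per library and a line at the group mean. In YALI0_A00110g, YALI0_C00451g and YALI0_E34771g the pO2-UN-2 libraries lie far below the other 6, and in YALI0_D27236g and YALI0_E34540g they lie above them.

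The share of lower genes varied with rank in this comparison, but an effect of rank was not tested. At ranks 11 to 15, 18 of 58 tested genes were lower (31%), against 18.2% at ranks 1 to 5, 13.6% at 6 to 10 and 10.3% at 16 to 20. Adjacent listed genes were called in the same direction in 16 of 288 neighbour pairs (5.56%), against 205 of 6088 pairs among the other genes (3.37%), and in opposite directions in 6. Ranks 11 to 15 hold the runs of 5 lower genes at F right and 4 at A right described below. The high share at these ranks, the neighbour pairs and the runs are therefore not separate observations. The longest run was at F right, where 5 genes in a row from 3930006 to 3953322 were lower. From the inside out these were YALI0_F31713g, without a KEGG hit, the ribonucleotide reductase gene YALI0_F31735g, YALI0_F31845g, which matched an ATP-binding cassette transporter, YALI0_F31867g, without a KEGG hit, and YALI0_F31911g, with only a weak hit. YALI0_F31845g had FPKM values of 214 and 211 in pO2-1, 112 and 115 in pO2-2, 7.91 and 6.67 in pO2-UN-2 and 127 and 121 in pO2-UN-3, a change of -4.69 (adjusted p = 2.5e-05). YALI0_F31867g had FPKM values of 50.3 and 50.6 in pO2-1, 143 and 142 in pO2-2, 6.14 and 7.59 in pO2-UN-2 and 147 and 158 in pO2-UN-3, a change of -2.72 (adjusted p = 1.0e-04). In both, the pO2-UN-2 libraries were the lowest and did not overlap with any other group. YALI0_F31713g changed by -2.36, YALI0_F31735g by -4.57 and YALI0_F31911g by -2.40.

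A second run of 4 lower genes lay at A right, from 2259591 to 2265370. It held YALI0_A21120g, YALI0_A21131g and YALI0_A21175g, without KEGG hits, and YALI0_A21153g, a nicotinamidase, which converts nicotinamide to nicotinic acid in the salvage of NAD and in Saccharomyces cerevisiae relieves the Sir2 deacetylase of its inhibitor. YALI0_A21153g had FPKM values of 56.4 and 68.2 in pO2-1, 77.1 and 84.2 in pO2-2, 11.9 and 8.97 in pO2-UN-2 and 42.0 and 41.0 in pO2-UN-3, a log2 fold change of -2.48 (SE 0.18, adjusted p = 2.8e-04). The other 3 changed by -3.32, -2.73 and -3.02. A run of 3 higher genes lay at F right as well, from 3917103 to 3919645, with 2.08 for YALI0_F31537g, 2.28 for YALI0_F31548g and 2.36 for YALI0_F31559g. Runs of at least 4 numbered 2 among the 300 end genes and 4 among the 6094 other genes, and runs of at least 5 numbered 1 and 1. No other comparison had a run of at least 4 end genes. Whether runs are more frequent at the ends was not tested. Between the uncontrolled groups 1.04% of end gene pairs were called in the same direction, against 2.12% elsewhere. For the difference of responses the shares were 2.08% and 2.28%, and between the cultures after limitation 0.347% and 0.214%. In the controlled culture no 2 neighbouring end genes were called in the same direction, against 100 of 6088 pairs elsewhere (1.64%). The genes of these runs were picked out after their values were seen.

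**Figure D5:**
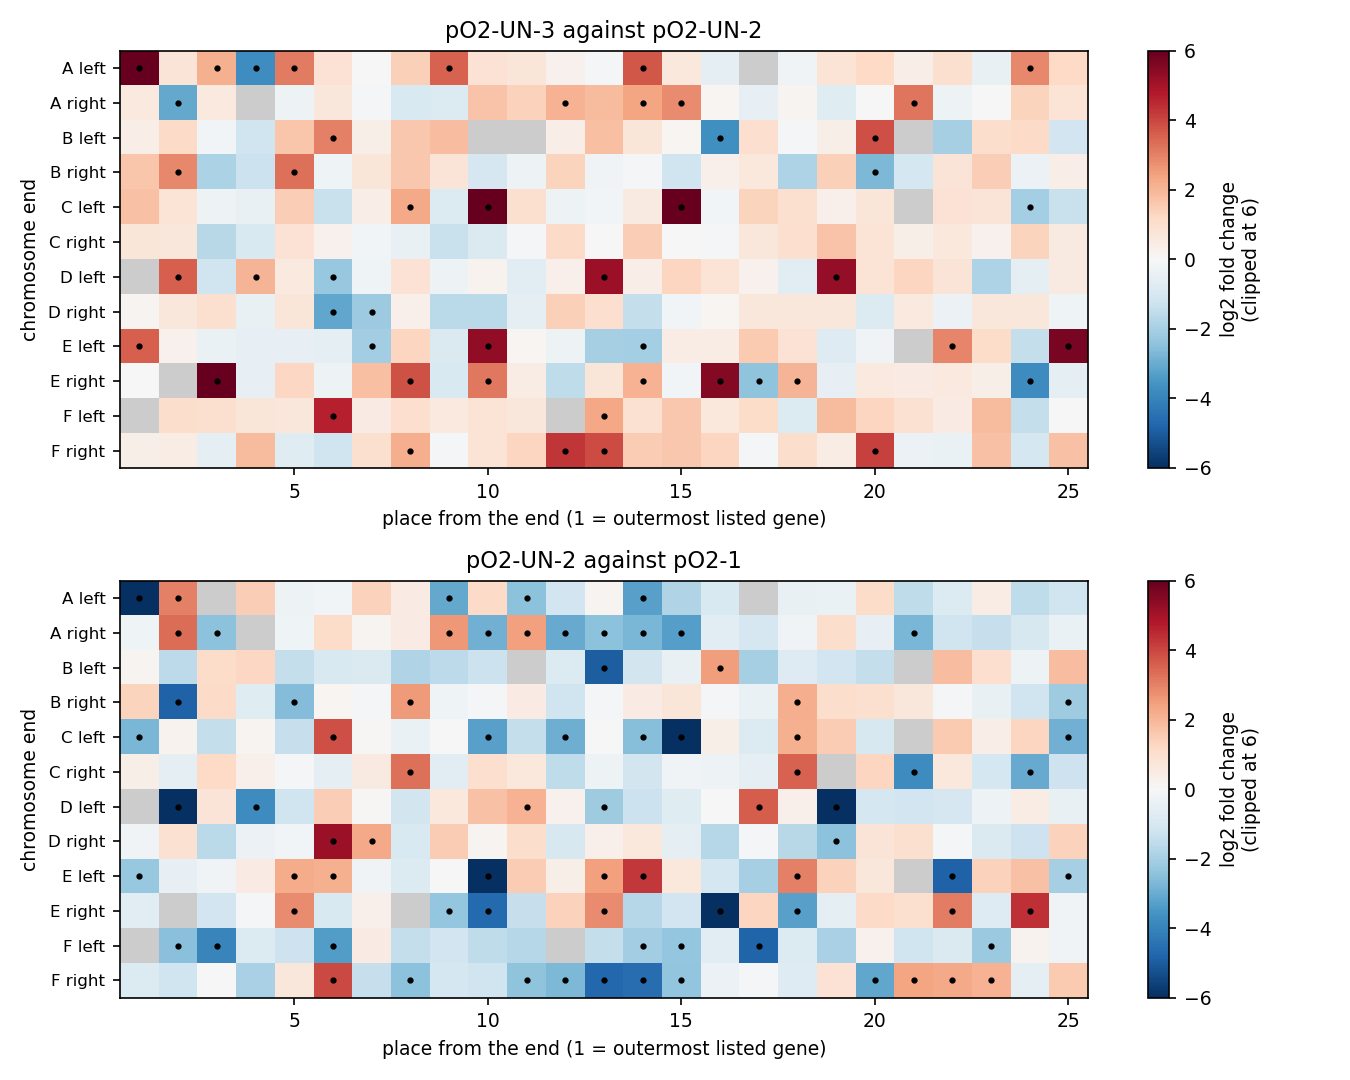
Log2 fold change of each end gene, by place from the end (1 is the outermost, 25 the innermost) for the 12 ends, in pO2-UN-3 against pO2-UN-2 (top) and pO2-UN-2 against pO2-1 (bottom); red is higher, blue lower, colours stop at 6, grey genes were not tested and a black dot marks a called gene. In the bottom panel the run of 5 lower genes at F right occupies places 11 to 15 and that of 4 at A right places 12 to 15.

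The fourth comparison set the cultures side by side after glycerol limitation, pO2-UN-3 against pO2-2, and gave few calls. Of 291 tested end genes, 7 (2.41%) were higher without pO2 control, beside 1.34% of 6209 tested genes, and 5 (1.72%) were lower, beside 1.82%. The median log2 fold change was -0.12 for the end genes and -0.10 for all tested genes. All 7 higher genes lay within the outermost 8 of an end: 4 of 57 tested genes at ranks 1 to 5 (7.02%) and 3 of 59 at ranks 6 to 10 (5.08%) were higher, none of those at ranks 11 to 25, and 0.69% of those at ranks 26 to 50. YALI0_A00154g, YALI0_A00176g and YALI0_E34925g were under 1 FPKM in both pO2-2 libraries. They were tested only through pO2-UN-3, so they could only be called higher. The places of the 7 were described after they were seen, and no conclusion on position is drawn. None of the 7 had a KEGG hit except YALI0_A00176g, whose hit was weak.

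YALI0_B23496g, the outermost gene of B right, was the 5th highest of all tested genes in this comparison, a log2 fold change of 4.39 (SE 0.09, adjusted p = 3.7e-05). YALI0_A21351g, at rank 6 of A right, was the 6th, with FPKM values of 226 and 237 in pO2-1, 44.7 and 34.8 in pO2-2, 410.0 and 609 in pO2-UN-2 and 909 and 684 in pO2-UN-3 and a log2 fold change of 4.29 (SE 0.18, adjusted p = 1.8e-04). For both genes the uncontrolled culture was above the controlled one in each phase. YALI0_E34925g, at rank 8 of E right, was under 1 FPKM in 6 libraries and at 21.3 and 14.2 in pO2-UN-3, a log2 fold change of 3.43 (SE 0.29, adjusted p = 8.9e-04). YALI0_A00154g, at rank 3 of A left, was listed at 0 in both pO2-2 libraries and had 5.96 and 5.33 in pO2-UN-3, at least 10.4-fold higher with a floor of 3 fragments per library. YALI0_D27236g was higher by 2.66 and YALI0_E35046g, at rank 5 of E right, by 2.07, from 55.5 and 51.2 in pO2-2 to 235 and 221 in pO2-UN-3. YALI0_A00176g was called with a log2 fold change of 2.73 (SE 0.82, adjusted p = 0.04), but leaving out either pO2-2 library raised its limma adjusted p to 0.070 or 0.088. Without either pO2-UN-3 library, YALI0_A00154g, YALI0_A00176g and YALI0_E34925g no longer met the minimum level for testing, and 9 of the 12 called end genes were still called.

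The 5 lower genes included a pair of sugar carriers, an amidase match and catalase. YALI0_D00363g, with -3.26, and YALI0_E00704g, with -3.01, had both risen after limitation in each culture. YALI0_B00396g, which is annotated as an alpha-glucoside:H+ symporter, a carrier for maltose-like sugars, had FPKM values of 2.66 and 1.76 in pO2-1, 6.73 and 11.5 in pO2-2, 0.35 and 0.23 in pO2-UN-2 and 1.04 and 0.57 in pO2-UN-3, a log2 fold change of -2.46 (SE 0.33, adjusted p = 0.003). YALI0_A00528g, whose best hit is an amidase, had FPKM values of 0.49 and 0.85 in pO2-1, 8.62 and 10.8 in pO2-2, 0.63 and 0.63 in pO2-UN-2 and 1.64 and 0.62 in pO2-UN-3 and a log2 fold change of -2.37. Catalase, YALI0_E34749g, changed by -2.11. Each of the 5 had both pO2-UN-3 libraries below both pO2-2 libraries.

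Whether the 2 cultures responded unequally was tested with all 8 libraries, as an interaction of culture and phase. Of 292 tested end genes, 42 (14.4%) had a positive difference (the log2 change without pO2 control minus that with it), beside 11.8% of 6278 tested genes, and 23 (7.88%) a negative one, beside 6.85%. With median-of-ratios scaling 37 were positive and 29 negative, so that positive genes made up 56.1% of the called end genes instead of 64.6% (52.1% instead of 63.3% over all genes). YALI0_A00110g had the largest positive difference of all tested genes, 11.60 (adjusted p = 7.3e-10). The transporter YALI0_C00451g followed among the end genes with 6.92 (adjusted p = 3.5e-08), then YALI0_E00308g with 6.62 (adjusted p = 9.5e-08), the amidase YALI0_E34771g with 6.19 (adjusted p = 6.7e-07) and YALI0_D00132g with 5.62 (adjusted p = 4.4e-06). YALI0_D00132g was called in opposite directions, with -2.02 under pO2 control and 3.60 without it, and its controlled change was -1.99 without the first library of either pO2-1 or pO2-2, just under the minimum. YALI0_B23474g likewise changed by -2.51 and 2.86.

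Among the negative differences, YALI0_E34540g had -3.95 (adjusted p = 2.4e-06), YALI0_E00462g -3.77 (adjusted p = 6.8e-07), YALI0_C00253g -3.66 (adjusted p = 1.3e-06) and YALI0_A21439g -3.44 (adjusted p = 1.7e-05). YALI0_D27214g, at rank 7 of D right and beside YALI0_D27236g, had -3.42 (adjusted p = 1.2e-04). It had FPKM values of 2.91 and 2.62 in pO2-1, 8.84 and 6.94 in pO2-2, 22.1 and 13.1 in pO2-UN-2 and 2.47 and 3.52 in pO2-UN-3, so the second pO2-UN-2 library was well below the first. Its change without pO2 control, -2.19, was -1.83 without the first pO2-UN-2 library and -1.998 without the first pO2-UN-3 library, both under the minimum, and its difference between the cultures before limitation was 1.91 without the former. For YALI0_E00462g the change without pO2 control, -2.06, was -1.96 without the second library of either uncontrolled group.

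By function, 15 end genes fell in the transport list, which was made by words in the first KEGG hit. It leaves out YALI0_A00110g, YALI0_F31845g and the aquaporin matches YALI0_D00495g and YALI0_F00462g. It counts YALI0_D00176g, a sterol carrier protein 2 match annotated as an enzyme, which was called higher without pO2 control and lower before limitation. Without pO2 control 5 of 14 tested were higher and 1 lower (beside 11.3% and 5.01% of all tested genes). Their median change was 0.75 and that of all tested genes 0.49. Before limitation 2 of 15 were higher and 6 lower in the uncontrolled culture (beside 9.18% and 14.4%), with a median of -0.82 against -0.31. In the controlled culture only YALI0_D00363g of this list was higher and only YALI0_D00132g lower. The 10 genes of ribosome and translation showed another pattern: 5 were higher after limitation with pO2 control and none lower (beside 9.52% and 4.29%), with a median of 1.95 against 0.13, and 5 were higher in pO2-UN-2 than in pO2-1 (beside 9.18%), with a median of 1.88 against -0.31. YALI0_E00550g, ribosomal protein L14e, had FPKM values of 189 and 209 in pO2-1, 1658 and 1619.8 in pO2-2, 1532 and 1729.8 in pO2-UN-2 and 3137 and 2881 in pO2-UN-3, a log2 fold change of 3.04 (SE 0.05, adjusted p = 8.0e-08) with pO2 control. YALI0_E34573g had FPKM values of 274 and 285 in pO2-1, 1647 and 1551 in pO2-2, 2291 and 2371 in pO2-UN-2 and 3684 and 3416 in pO2-UN-3 and rose by 2.51. YALI0_E34826g, ribosomal protein S27e, rose by 2.86, YALI0_A00352g, elongation factor 2, by 2.72 and YALI0_A21197g, the ribosome biogenesis protein ENP2, by 3.38. In all 5 the pO2-1 libraries were the lowest of the 8. No gene of this list was called between the 2 uncontrolled groups.

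For the shorter lists that follow, 9.52% of all tested genes were higher and 4.29% lower with pO2 control, and 11.3% and 5.01% without it. Between the cultures before limitation the shares were 9.18% and 14.4%. Of the 9 oxidoreductases, YALI0_F31735g and the polyamine oxidase YALI0_B23430g were lower with pO2 control, and YALI0_B00572g and YALI0_E34749g without it. In pO2-UN-2 against pO2-1, YALI0_B00572g and YALI0_A21263g were higher and YALI0_F31735g lower. YALI0_E34749g was lower in pO2-UN-3 than in pO2-2. In the list of 17 genes of DNA and chromatin, the RNA helicase YALI0_F31493g was higher with pO2 control, with 2.60. A histone H4 gene at F left, YALI0_F00374g, had FPKM values of 2.74 and 2.71 in pO2-1, 6.49 and 4.60 in pO2-2, 0 and 0.95 in pO2-UN-2 and 7.62 and 4.65 in pO2-UN-3 and rose by 2.32 without pO2 control, or 1.84 without the first pO2-UN-2 library. Its pO2-UN-2 values rested on 0 and about 1 fragment. With a floor of 3 fragments per library the rise was at least 2.17-fold. The species has several H4 genes of like sequence, so the share of reads given to each copy is uncertain. Of the 3 chaperones, YALI0_A00132g was higher with pO2 control and YALI0_D00220g lower without it, while YALI0_A00594g, of the DnaJ type, had 1.76 with pO2 control and was not called. Of the 2 proteases, the cerevisin match YALI0_B22990g was lower in pO2-UN-2 than in pO2-1, with -2.14, or -1.97 without the first pO2-UN-2 library, and YALI0_B00374g, which matched candidapepsin, was not called. Of the 4 lipases and esterases only YALI0_E34881g was called, and of the 3 genes of the cell wall list only YALI0_A00176g. Among the 128 end genes without a KEGG hit, 20 were higher and 3 lower of 121 tested without pO2 control, where all genes without a hit gave 272 and 146 of 2270.

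Counts varied among the ends, each of only 25 genes, and whether the ends differ was not tested. At E right and at F right, 12 of 25 genes were called in at least 1 of the 4 comparisons. A left, A right and E left had 11 each, C left 10, B left 5 and D right 3. The share was 35.3% of all 300 end genes and 33.6% of the other genes. At F left 7 of 23 tested genes were lower and none higher in pO2-UN-2 than in pO2-1, with a median log2 fold change of -1.42. E left had 5 higher and 4 lower of 24 tested and a median of 0.42. Of all tested genes, 14.4% were lower and 9.18% higher, with a median of -0.31. D right had no call with pO2 control (beside 13.8% of all tested genes), and C right had none without it (beside 16.3%).

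Genes of telomere maintenance and of silencing were followed over the whole genome by a list of 44 genes, made of the core histones, histone modifying enzymes, SIR2-type deacetylases, Ku and origin recognition subunits, telomerase and telomere length regulators. Of these, 3 were end genes: YALI0_F00374g, YALI0_A20834g, the deacetylase HOS3, and YALI0_F31647g, origin recognition subunit 6. HOS3 had FPKM values of 21.6 and 22.1 in pO2-1, 46.2 and 47.4 in pO2-2, 15.4 and 16.7 in pO2-UN-2 and 26.1 and 32.2 in pO2-UN-3, and ORC6 had FPKM values of 35.7 and 35.7 in pO2-1, 55.8 and 54.1 in pO2-2, 32.9 and 36.2 in pO2-UN-2 and 26.9 and 36.3 in pO2-UN-3. Neither was called in any comparison. In the whole list 13 of 43 tested genes were lower and 1 higher in pO2-UN-2 than in pO2-1 (beside 14.4% and 9.18% of all tested genes), and the median change was -1.03, against -0.31. With pO2 control 1 was higher and 3 lower after limitation (beside 9.52% and 4.29%), without it 5 were higher and 1 lower (beside 11.3% and 5.01%), and after limitation 1 was higher in the uncontrolled culture (beside 1.34%). The genes lower in pO2-UN-2 than in pO2-1 included both Ku subunits, YALI0_E02068g (-2.07) and YALI0_C08701g (-2.88). They also included the telomere length regulator YALI0_D22154g (-2.18), the SIR2-type YALI0_D02145g (-2.91) and several histone genes. Another telomere length regulator, YALI0_D22979g, and the other SIR2-type genes were not called there. Those SIR2-type genes went both ways: YALI0_D13486g (1.95) and YALI0_F11583g (0.29) upward, YALI0_C23034g (-0.90) and YALI0_D16687g (-1.09) downward. Telomerase reverse transcriptase, which copies the repeats, had a mean FPKM of 8.41 in pO2-1, 11.0 in pO2-2, 6.93 in pO2-UN-2 and 8.85 in pO2-UN-3, and was not called. How these levels relate to the end genes was not tested.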

How the data were processed

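RNA-seq was analysed in 8 libraries, 2 in each of 4 groups. The deposited FPKM values were estimated by the authors with Cufflinks at standard parameters after TopHat2 alignment against the CLIB122 genome, in 1 table per culture. Whether strand was used is not given in the sources used here, and depth (5100000 to 5360000 fragments) was read from FPKM steps, with 91.8% to 96.2% of low values whole within 0.06 fragments.

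Genes absent from 1 table were taken as 0 (4 end genes, listed only in the uncontrolled table). Genes that reached 1 FPKM in 2 or more of the libraries compared were fitted with limma 3.58.1 (R 4.3.3, variance trend) on log2(FPKM + 1), over all genes, with group as the only term, leaving 2 residual degrees of freedom for a comparison of 4 libraries and 4 for the interaction of 8. In a comparison of 4 libraries, a gene under 1 FPKM in both libraries of a group could therefore be called in 1 direction only. Calls needed a Benjamini-Hochberg adjusted p under 0.05 and a log2 fold change of at least 2. The fit was tested on simulated data. Tables were joined with Python 3.11.15 and pandas 2.3.3 and drawn with matplotlib 3.10.9.

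The end genes and the lists were chosen with earlier results of these data known. Named were the outermost gene of each end, the 5 largest called increases and decreases of each comparison (higher group mean of 5 FPKM or more, no overlap of replicates), the 3 highest genes of each group, the 5 largest differences of the responses in each direction, and up to 4 genes of each function list, made by words in the first KEGG hit. Other genes were named after their values were seen, and 1 gene is not reported here. End gene counts are set beside those of all genes as a description, without a test. Alternatives were a pseudocount of 0.1, no filter, median-of-ratios scaling, a log2 minimum of 1, 10 or 50 genes per end, a replicate block and leaving out each library.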

Additional observations from a re-analysis of the deposited data

Results flagged for a closer look

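The responses of the 2 cultures to glycerol limitation differed for 65 of 292 tested end genes (22.3%, beside 18.7% of all tested genes) by limma's test of the interaction over all 8 libraries, 42 with a positive difference (the change without pO2 control minus that with it) and 23 with a negative one. Among the genes named, positive differences on the log2(FPKM + 1) scale were 11.60 for YALI0_A00110g, 6.92 for YALI0_C00451g (an amino acid transporter), 6.62 for YALI0_E00308g, 6.19 for YALI0_E34771g (an amidase), 5.62 for YALI0_D00132g, 5.37 for YALI0_B23474g, 4.56 for YALI0_F31735g (ribonucleotide reductase) and 3.04 for YALI0_B23496g. Negative differences were -3.17 for YALI0_A00132g (heat shock protein 70), -3.42 for YALI0_D27214g, -3.44 for YALI0_A21439g, -3.66 for YALI0_C00253g (acetolactate synthase), -3.77 for YALI0_E00462g and -3.95 for YALI0_E34540g. In the first 6 of the positive genes both pO2-UN-2 libraries were under 2 FPKM. The cultures stand in separate tables, and culture and pO2 setting cannot be told apart.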

How the results depend on the processing

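With 2 libraries per group, few fragments behind low genes and no fermentor label, precision rests on the variance shared across genes. The percent of tested end genes called was 14.5 with pO2 control, 17.0 without it, 27.2 between the cultures before limitation, 4.12 after it and 22.3 for the difference of the responses, beside 13.8, 16.3, 23.5, 3.16 and 18.7 of all tested genes. A log2 minimum of 1 gave 37.6, 42.9, 57.5 and 12.4 for the 4 comparisons, beside 35.2, 45.7, 51.4 and 14.5 of all tested genes, so that the end genes were below all genes in the second and the last comparison, and 10 genes per end gave 6.9 for the last. Leaving out 1 library gave 14.2 to 14.3, 14.3 to 17.4, 26.2 to 27.3, 3.14 to 4.17 and 20.7 to 22.6. The replicate block gave 14.5, 17.0, 27.2, 4.12 and 22.3. The replicate numbers were not treated as pairs, and deviations of equal numbers correlated at 0.02, -0.07, 0.00 and 0.04. These values cannot exclude pairing, since the controlled replicates differed by little more than counting noise. The median level of the end genes minus that of the others (log2) was 0.15 in pO2-1, 0.11 in pO2-2, -0.03 in pO2-UN-2 and 0.09 in pO2-UN-3. With the filter on low values it was 0.18, 0.13 and 0.0077 in the first 3 groups. With 10 genes per end it was -0.0345, -0.0609, -0.0047 and -0.0127, with 50 genes -0.036, -0.0288, -0.196 and -0.119, and with 1 library 0.15 to 0.16, 0.09 to 0.12, -0.04 to -0.01 and 0.08 to 0.10. Under an FPKM of 5 instead of 1 were 9.67%, 8.33%, 19% and 8% of the end genes, and 5.83% under 1 in pO2-2 with 10 genes per end. Over the 122 changes given for named genes and all alternatives run on them, 17 values lost their call, 13 without 1 library and 4 by median-of-ratios scaling (YALI0_B22990g, YALI0_D00363g, YALI0_E00110g and YALI0_E00704g before limitation) and none changed sign. This count leaves out alternatives in which a gene no longer met the minimum level for testing. Such losses occurred for genes under 1 FPKM in the lower group, such as YALI0_D00363g, when a library of the higher group was left out. Over all called end genes, median-of-ratios scaling kept 42 of 42, 41 of 49, 72 of 78, 12 of 12 and 60 of 65 calls, and leaving out 1 library kept at least 39, 35, 70, 9 and 58 of them. The causes were not tested.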
